A study of Homo sapiens with 15 samples.

Results

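Small RNA of 3 HEK293-derived cell lines was precipitated with an IgG isotype control antibody in place of the antibody against N6-methyladenosine (m6A), and the miRNA reads in the IgG precipitate were compared with those in the input small RNA of the same line. All 2189 mature miRNAs counted in the IgG and input libraries were followed, in 6 of the 15 libraries of the series. The cell lines FTO1C1, FTO2D4 and FTO3C3 are derivatives of Flp-In 293 T-Rex cells, that is, human embryonic kidney cells with a site for an inducible transgene; each line is 1 clone. The cells for precipitation and input are labelled as not treated, and the Methods name the lines as uninduced for the siRNA experiments only. The IgG and input groups therefore hold 1 library from each of the 3 clones. The p-values of the fit rest on how the difference within a clone varied over these clones, with information on the spread shared across miRNAs. A clone cannot be told apart from its precipitation and library preparation. Values from the 3 libraries precipitated with the anti-m6A antibody from the same untreated clones, and from 3 libraries of the clones transfected with scrambled siRNA at 10 nM for 48 h (not precipitated), are given beside them where they bear on a result.

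A miRNA is a short RNA that is cut from a hairpin precursor and loaded into an Argonaute protein, where its seed near the 5′ end pairs with target mRNAs. Usually 1 strand of the hairpin, the guide, accumulates, and the other, the passenger strand, is degraded. In an antibody precipitation from purified RNA, an isotype control antibody has no RNA target, so that the RNA found with it is what stays with the antibody, the Protein G beads and the tube through the washes; such a precipitate is the background against which an enrichment is measured.

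The mature sequences of the miRNAs on which the results turn are shown first, since the miRNAs gained and lost in the IgG precipitate differed in base composition. They were taken from RefSeq (GRCh38.p14), which held a sequence for 1926 of the 2189 miRNAs (88.0%) and for 1712 of the 1941 that were tested. The seed, bases 2 to 8 from the 5′ end, is in capitals. The first pair held most of the reads of the IgG precipitates.
miR-6080: uCUAGUGCgggcguucccg
miR-3168: gAGUUCUAcagucagac
The gene of miR-6080 lies at chr17:64780796-64780814 on the plus strand, within the span of the pseudogene ARHGAP27P1, and that of miR-3168 at chr13:41101076-41101092 on the minus strand, outside any other annotated gene.

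The next sequences were depleted in the IgG precipitates. The first 4 share the seed AAAGUGC of the miR-17 family.
miR-17-5p: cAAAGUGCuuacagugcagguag
miR-20a-5p: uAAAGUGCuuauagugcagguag
miR-106b-5p: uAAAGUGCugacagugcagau
miR-93-5p: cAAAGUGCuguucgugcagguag
miR-19b-3p: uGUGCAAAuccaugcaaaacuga
miR-10a-5p: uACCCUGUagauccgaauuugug
miR-148a-3p: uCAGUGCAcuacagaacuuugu
let-7f-5p: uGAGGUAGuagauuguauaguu
miR-548k: aAAAGUACuugcggauuuugcu
Of these, miR-17-5p (chr13:91350618-91350640) and miR-20a-5p (chr13:91351072-91351094) are on the plus strand in the miR-17-92 cluster. On the minus strand are miR-106b-5p (chr7:100094043-100094063) and miR-93-5p (chr7:100093815-100093837), both within MCM7, miR-10a-5p (chr17:48579904-48579926), within the span of HOXB3, and miR-148a-3p (chr7:25949922-25949943). The gene of miR-548k is at chr11:70283986-70284007 on the plus strand within PPFIA1, and miR-19b-3p and let-7f-5p each have a pair of genes. Whether a miRNA lies in an exon or an intron of the gene around it was not analysed here.

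The last sequences were scarce in the input and abundant in the IgG precipitates.
miR-4717-5p: uAGGCCACagccacccaugugu
miR-4492: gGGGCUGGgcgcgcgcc
miR-4442: gCCGGACAagagggagg
miR-149-3p: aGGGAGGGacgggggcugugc
miR-718: cUUCCGCCccgccgggcgucg
miR-432-5p: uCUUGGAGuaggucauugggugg
miR-495-3p: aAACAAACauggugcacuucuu
They map to chr16:2274629-2274650 (plus strand, miR-4717-5p), chr11:118910765-118910781 (plus, within BCL9L, miR-4492), chr3:25664875-25664891 (minus, within TOP2B, miR-4442), chr2:240456056-240456076 (plus, within GPC1, miR-149-3p), chrX:154019928-154019948 (minus, miR-718), chr14:100884496-100884518 (plus, within the span of RTL1, miR-432-5p) and chr14:101033804-101033825 (plus, miR-495-3p). In miR-149-3p, 61.9% of the bases are G, and in miR-4492 58.8%. miR-495-3p is unlike the others, with 13.6% G and 36.4% A.

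The IgG libraries were shallower than the input libraries. They held 741432, 786688 and 186446 miRNA reads in FTO1C1, FTO2D4 and FTO3C3, against 1408702, 1459712 and 1500357 in the input. A miRNA had a median of 17, 16 and 6 reads in the IgG libraries and of 23, 28 and 22 in the input, and 26, 18 and 142 of the 2189 miRNAs had no read in the IgG libraries. A count of 0 allows up to 3 reads, which corresponds to 4.05, 3.81 and 16.1 RPM (reads per 1000000 miRNA reads of a library) in the IgG libraries of FTO1C1, FTO2D4 and FTO3C3. The reads carried no molecular identifiers, so that such limits and the intervals below cover counting error only.

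A single entry, miR-6080, took up most of each IgG precipitate. It held 65.0%, 71.6% and 58.0% of the miRNA reads in the IgG libraries of FTO1C1, FTO2D4 and FTO3C3, and 28.4%, 26.6% and 15.5% of those in the input. All IgG libraries lay above all input libraries. The mean share was 64.9% ± 6.83 (SD, n = 3) in IgG and 23.5% ± 6.98 in input, and the difference within a clone was 41.4 percentage points ± 4.27 (SD, n = 3). With 3 libraries against 3, an exact two-sided permutation test cannot give a p below 0.1, and with 3 pairs not below 0.25; both values were reached here. In the edgeR quasi-likelihood fit across all miRNAs, miR-6080 was 2.84-fold higher in IgG (log2 fold change 1.51 ± 0.32 (SE), adjusted p = 7.02e-06).

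The count of miR-6080 was 563404 in both the IgG and the m6A library of FTO2D4. Over the 36 pairs of the 9 precipitate and input libraries, only 4 equal counts of at least 200 reads were found, and the other 3 were of 320 reads or fewer. The neighbouring abundant entry miR-3972 had 6876 and 7069 reads in these libraries, so the columns as a whole are not copies. Whether 1 of the equal counts was carried over from the other library was not tested. Without FTO2D4, the mean difference in the miR-6080 share was 39.6 percentage points.

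In the other libraries the share of miR-6080 was 2.05%, 3.10% and 4.18% with scrambled siRNA and 47.8%, 41.3% and 44.5% in the m6A precipitates. The m6A precipitates thus lay between the input and the IgG precipitates, whereas small RNA sequenced directly from siRNA-treated cells held far less of this entry. The scrambled siRNA libraries are from transfected cells and a separate experiment, which cannot be told apart.

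The second entry, miR-3168, did not follow the same pattern. It held 19.3%, 12.3% and 22.1% of the IgG reads and 24.02%, 9.04% and 32.3% of the input reads. The groups overlapped, and FTO2D4 alone had the higher share in IgG (exact two-sided permutation p = 0.6, paired 0.5). With totals that left out miR-6080, miR-3168 was called higher in IgG (log2 fold change 0.99, against −0.14 with all reads; edgeR quasi-likelihood adjusted p = 0.0030). Its share was lower in the m6A precipitates, at 7.68%, 9.32% and 5.33%, and at most 0.0674% in the scrambled siRNA libraries. Together miR-6080 and miR-3168 made up 84.3%, 83.9% and 80.1% of the IgG reads against 52.4%, 35.7% and 47.8% of the input reads.

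**Figure D1:**
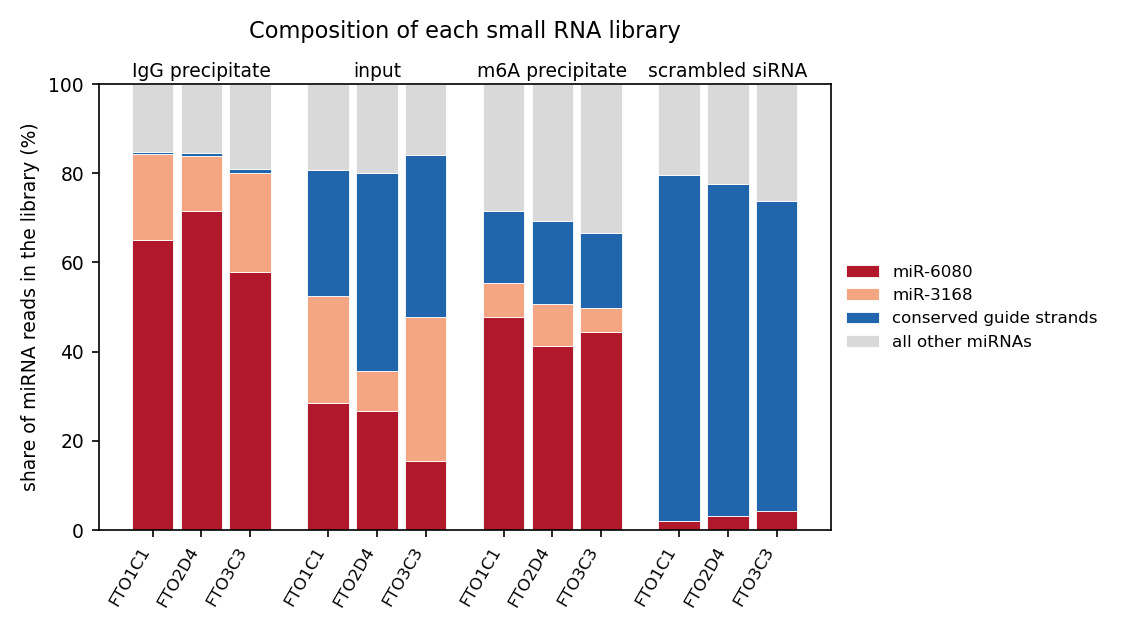
Share of the miRNA reads of each library (%, y axis) held by miR-6080, miR-3168, the conserved guide strands and all other miRNAs, for the IgG, input, m6A and scrambled siRNA libraries of the 3 clones; each bar is 1 library. The IgG bars are mostly miR-6080 (58.0% to 71.6%) with a thin band of conserved guides, which is wide in the input and widest in the scrambled siRNA libraries.

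The reads of an IgG library were concentrated on its leading entries. The effective number of miRNAs, the exponential of the Shannon entropy of the read shares, was 6.47, 5.86 and 9.32 in IgG and 25.3, 36.7 and 25.2 in input, with no overlap between the groups (exact two-sided permutation p = 0.1, the smallest possible). With miR-6080 left out of the reads, it was 32.8, 62.0 and 40.1 in IgG and 39.5, 61.6 and 27.4 in input. The groups then overlapped, and the mean difference changed from −21.9 to 2.13. By another measure, 90% of the reads were held by 57.7 ± 39.4 miRNAs (SD, n = 3) in IgG and 85.3 ± 15.9 in input; the groups overlapped, with 31 more miRNAs in IgG than in input in FTO3C3 (exact two-sided permutation p = 0.4). In the m6A precipitates, the effective number was 28.6, 35.9 and 41.0.

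Which miRNAs were higher or lower in the IgG precipitate than in the input was tested for 1941 miRNAs, and the remaining 248 fell below the filter on low counts. In the edgeR quasi-likelihood test, with an adjusted p under 0.05, 1137 miRNAs differed (58.6% of those tested), of which 714 were higher in IgG (36.8%) and the rest lower (21.8%). All IgG libraries lay above all input libraries for 794 miRNAs (40.9%) and below them for 474 (24.4%). The differences were large: 421 of the miRNAs that rose had a log2 fold change above 2, and 302 of those that fell had one below −2. The extremes lay on the lower side, with the 5% quantile of the log2 fold change at −4.59 and the 95% quantile at 3.55.

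The split into higher and lower depended on how the libraries were scaled, since a lower share of a miRNA and dilution by other RNA cannot be told apart. On the scale of total miRNA reads, the 1941 tested miRNAs had a median log2 fold change of 0.49, and 62.8% of the calls were higher in IgG. Under TMM scaling the median shifted by −0.51 to −0.021, with 559 higher and 586 lower (48.8% higher). With DESeq2, which has its own size factors and its own test, the median shifted by −0.58 to −0.093, with 447 higher and 534 lower (45.6%). With totals that left out miR-6080 it shifted by 1.14 to 1.63, with 1192 higher and 276 lower (81.2%). On all 4 scales, 447 miRNAs were called higher and 276 lower. Where a list median below changed sign on another scale, or a miRNA changed sign and was called there, this is said beside it. Other log2 fold changes near 0 that were not called can also change sign between the scales.

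The miRNAs called lower and higher came from different ranges of abundance. Those called lower had a median level (the mean RPM over 3 libraries) of 135 in input and 14.96 in IgG. In the scrambled siRNA libraries 375 of the 422 also counted there (88.9%) reached 15 RPM in all 3 clones. Those called higher had a median level of 10.6 RPM in input, 54.5 in IgG and 13.6 in the scrambled siRNA libraries, where 259 of 714 (36.3%) reached 15 RPM in all 3 clones. Of the miRNAs tested, 1005 were under 15 RPM in at least 1 input library and could pass the filter largely through their IgG reads, so that a rise among them is partly built in. The miRNAs called lower held 39.1%, 57.0% and 45.3% of the input reads but 1.44%, 1.66% and 2.11% of the IgG reads.

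**Figure D2:**
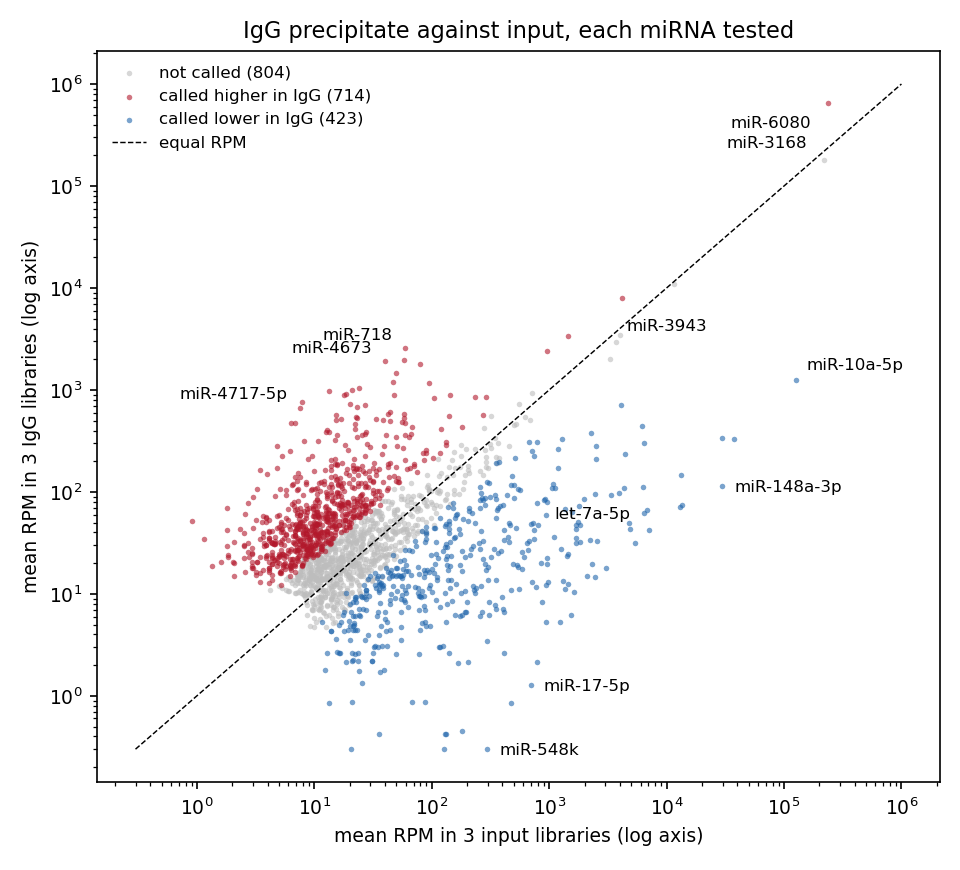
Mean level of each tested miRNA over the 3 input libraries (x axis, RPM, log scale) and over the 3 IgG libraries (y axis, RPM, log scale); red points were called higher in IgG (714), blue points lower, grey points neither, and a mean under 0.3 RPM is drawn at 0.3. miRNAs abundant in the input mostly lie below the line of equal RPM, and many of those near 10 RPM in the input lie above it; the numbers on each side change with the scale, as given in the text.

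The conserved guide strands that are most abundant in HEK293 cells were almost absent from the IgG precipitates. Of 88 listed guides of widely conserved miRNA families, 86 were tested, of which 76 (88.4%) were lower in IgG, against 21.8% of all miRNAs tested, 1 was higher and 9 did not pass the test. Their median log2 fold change was −4.54, against 0.49 for all miRNAs tested. For 77 of them all IgG libraries lay below all input libraries, as for 24.4% of all tested. Together the guides held 0.440%, 0.625% and 0.804% of the IgG reads, 28.3%, 44.5% and 36.2% of the input reads and 16.1%, 18.7% and 16.8% of the m6A reads. On the other scales 82 (TMM), 81 (DESeq2) and 68 (totals without miR-6080) were lower, and 68 were lower on all 4. The depth of single guides in IgG was low, with a median of 16, 19.5 and 7 reads and with 5, 2 and 9 guides at 0. Of the 100 miRNAs with most reads in input, guides such as miR-10a-5p included, 88 were lower in IgG (median −5.05). The choice by high input values favours a fall, and its part in this count was not tested. Of the 100 miRNAs with most reads in IgG, where the choice favours a rise, 71 were higher and 11 lower. Whether the guides fell more than other miRNAs of the same abundance was not tested.

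miR-10a-5p, which is encoded in the HOXB cluster and was the most abundant conserved guide of these cells, had 136216, 235825 and 177323 reads in the input of FTO1C1, FTO2D4 and FTO3C3. In the IgG libraries it had 404, 1270 and 290 reads, which is 545, 1614 and 1555 RPM. The groups were far apart, and the within-clone level was 177-, 100- and 76.0-fold lower in IgG (edgeR quasi-likelihood test, log2 fold change −6.79 ± 0.43 (SE), adjusted p = 1.34e-51). In the m6A libraries it made up 7.12%, 9.30% and 7.17% of the reads. All 4 guides of the miR-10 and miR-196 families, which are encoded in the HOX clusters, were lower in IgG, also on all 4 scales, with a median log2 fold change of −6.43. The smallest difference among them was that of miR-196a-5p, at 13.5, 16.5 and 48.3 RPM in IgG and 262, 572 and 332 RPM in input (−4.12).

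The guides of the miR-17-92 cluster and its paralogs, a group known to promote proliferation, had the lowest median of the lists. All 10 listed members were lower in IgG on all 4 scales, at log2 fold changes from −8.56 to −4.44 (median −7.61). miR-19b-3p had 4, 2 and 2 reads in the IgG libraries and 2467, 2147 and 2013 in the input, and was lower by a fitted factor of 309 (log2 fold change −8.27 ± 0.61, SE). Of the members with the seed AAAGUGC, miR-17-5p had 0, 3 and 0 reads in IgG and 811, 938 and 1330 in input. Pooled over the clones, its 3 against 3079 reads correspond to a level 403-fold lower in IgG (95% counting interval 138 to 1954). miR-20a-5p had 2 against 2072 pooled reads and was 407-fold lower (interval 112 to 3360). The other members with this seed behaved likewise, miR-106b-5p with 2, 3 and 0 reads in IgG and 975, 1518 and 958 in input (−8.16), and miR-93-5p with 6, 7 and 5 against 2391, 4545 and 3902 (−7.66).

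miR-92a-3p, which has a gene in the cluster of miR-17-5p and another on the X chromosome, kept more reads in IgG. It had 185, 281 and 75 reads there and 29540, 38536 and 62472 in input, with a log2 fold change of −6.43. Its near relative miR-25-3p, which has the same seed, had 27, 89 and 14 reads in IgG and 11536, 24066 and 23773 in input (−7.55). Reads of such related miRNAs could have been assigned to either of them by the counting, so that single values within a family are uncertain. miR-363-3p, of the paralog cluster on the X chromosome, had the smallest difference in this group, at 9.44, 5.09 and 21.5 RPM in IgG and 155, 375 and 143 RPM in input (−4.44).

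miR-148a-3p, which represses the DNA methyltransferase DNMT1, had 39272, 57370 and 32563 reads in input and 56, 90 and 29 in IgG. Its level was 369.1-, 343.5- and 139.5-fold lower in IgG (edgeR quasi-likelihood test, log2 fold change −8.06 ± 0.49 (SE), adjusted p = 2.09e-56). In the m6A precipitates miR-148a-3p remained scarce, with 91, 218 and 1109 reads. At 160, 160 and 223 RPM it lay above its IgG level of 75.5, 114 and 156 RPM in all 3 clones, but m6A against IgG did not pass the test (log2 fold change 0.69, adjusted p = 0.108, edgeR quasi-likelihood test), and the direction turned under TMM (−0.055).

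All 5 guides of the miR-30 family were lower in IgG on all 4 scales (median log2 fold change −7.50). miR-30e-5p had 20, 27 and 12 reads in IgG against 7073, 11934 and 12230 in input, and miR-30d-5p had 42, 59 and 9 against 817, 1620 and 1682. Their log2 fold changes, −7.50 and −3.87, were the middle and the least negative of the 5. The passenger strand miR-30a-3p was likewise low, with 1, 0 and 0 reads in IgG against 171, 343 and 287 in input; the pooled level was 314-fold lower (95% counting interval 56.3 to 12432).

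The let-7 family, which restrains growth and is induced as cells differentiate, was depleted less evenly. Of 9 listed guides 8 were tested and 6 were lower, 5 of them on all 4 scales; the median was −4.06. let-7f-5p, the most abundant, had 44, 77 and 23 reads in IgG and 3353, 6097 and 5261 in input, and was 40.1-, 42.7- and 28.4-fold lower (log2 fold change −5.20 ± 0.46, SE). let-7a-5p differs from it at a single base and had 27, 76 and 22 reads against 776, 1893 and 1302 (−3.53 ± 0.45). The scarcer let-7c-5p and let-7e-5p did not pass the test, with log2 fold changes of −1.18 and −0.79 and edgeR quasi-likelihood adjusted p-values of 0.0815 and 0.182, but under TMM and under DESeq2 all 8 guides tested were lower. let-7d-5p, with at most 21 reads in an input library and 5 in an IgG library, was not tested.

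Of 59 other conserved guides tested, 51 were lower (44 on all 4 scales), 1 was higher and 7 did not pass (median −3.94). miR-186-5p had 43, 51 and 17 reads in IgG and 16321, 23794 and 17152 in input (−7.56). miR-103a-3p, which is encoded within the PANK genes of coenzyme A synthesis, had 4, 12 and 2 against 2038, 2699 and 2316 (−7.33). miR-378a-3p, encoded within PPARGC1B, had 17, 57 and 10 against 5047, 7053 and 9044 (−6.68). Less depleted was miR-182-5p, of the miR-183 cluster, at 294, 343 and 681 RPM in IgG and 3312, 7146 and 8017 RPM in input (−3.81). The exception was miR-100-5p, a relative of miR-10a, which is scarce in these cells: it had 26, 41 and 16 reads in IgG and 15, 18 and 9 in input (log2 fold change 2.45 ± 0.52, SE), and was higher on all 4 scales. Also scarce and not called was miR-125b-5p, with 7, 3 and 3 against 4, 10 and 23 reads (0.32).

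Beyond the guides, miR-548k, a member of the primate miR-548 family, whose hairpins derive from the transposable element Made1, was not detected with IgG. It had no read in any IgG library and 336, 572 and 396 reads in the input. At the limit of 3 reads per library, it was at least 58.9-, 102.8- and 16.4-fold lower in the IgG precipitate of FTO1C1, FTO2D4 and FTO3C3. The m6A libraries held 39, 63 and 375 reads of miR-548k. miR-548o-3p had no read in IgG either and 109, 162 and 108 RPM in input, a level at least 27.02-, 42.4- and 6.71-fold lower, and had 0, 3 and 1 reads in the m6A libraries.

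The family as a whole was not uniformly depleted. Of 36 listed miR-548 members 30 were tested, 13 were lower (43.3%, against 21.8% of all tested), 3 were higher (10.0%, against 36.8%) and 14 did not pass; the median log2 fold change was −0.76 and was the same with the 2 members without IgG reads set to their bounds, but became 0.42 with totals that left out miR-6080. The most abundant member in the 6 libraries was miR-548v, with 254, 165 and 42 reads in IgG and 490, 225 and 529 in input (log2 fold change −0.06, and 1.08 with totals that left out miR-6080). miR-548b-3p was higher in IgG, at 139, 111 and 231 RPM against 23.4, 28.8 and 13.3 (2.82 ± 0.49, SE).

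At the other end, miRNAs hardly detectable in the input came down with IgG at levels far above the background of single reads. miR-4717-5p had 11, 15 and 7 reads in the input and 397, 522 and 150 in the IgG libraries, that is, 535, 663.5 and 805 RPM. All IgG libraries lay above all input libraries, and within the clones the level was 68.6-, 64.6- and 172-fold higher in IgG (edgeR quasi-likelihood test, log2 fold change 6.44 ± 0.53 (SE), adjusted p = 1.64e-31). The scrambled siRNA libraries held 19, 15 and 10 reads of it, at a greater depth. The m6A precipitates held 328, 263 and 403 RPM, below the IgG precipitates (log2 fold change m6A against IgG −1.01, adjusted p = 0.0157, edgeR quasi-likelihood test), a call that was lost without FTO2D4 (−0.85, adjusted p = 0.132) and without FTO3C3 (−1.02, adjusted p = 0.0665).

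miR-4492, a G-rich entry of 17 bases, had 13, 26 and 20 reads in input and 600, 746 and 223 in IgG, a log2 fold change of 6.20 ± 0.51 (SE). The equally short miR-4442 had 3, 12 and 15 reads in input and 272, 351 and 112 in IgG (6.19 ± 0.54). miR-149-3p, the passenger strand of miR-149, had 17, 31 and 33 reads in input and 581, 683 and 199 in IgG (5.64 ± 0.49). In all of these the IgG libraries lay above the input libraries. miR-432-5p and miR-495-3p come from the imprinted DLK1-DIO3 region and are little expressed in HEK293 cells. The former was at 4.97, 7.54 and 6.67 RPM in input and 258, 313 and 853 RPM in IgG (6.01 ± 0.54), highest in FTO3C3. The latter had 44, 21 and 26 reads in input against 596, 844 and 210 in IgG (5.61 ± 0.49).

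The other miRNAs with the largest rises were miR-1233-5p, miR-4469, miR-4673 and miR-4750-3p, with log2 fold changes between 5.52 and 5.85. miR-4673, whose gene lies within NOTCH1, was the most abundant of them in IgG, with 1115, 1346 and 465 reads there and 59, 70 and 45 in input. miR-4750-3p rested on few input reads (7, 7 and 1), and its ratio was 27.4 and 31.5 in FTO1C1 and FTO2D4, whereas the single input read in FTO3C3 gave no usable ratio. The 20 miRNAs with the largest rises and falls were chosen for their size and for the same direction in all clones.

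**Figure D3:**
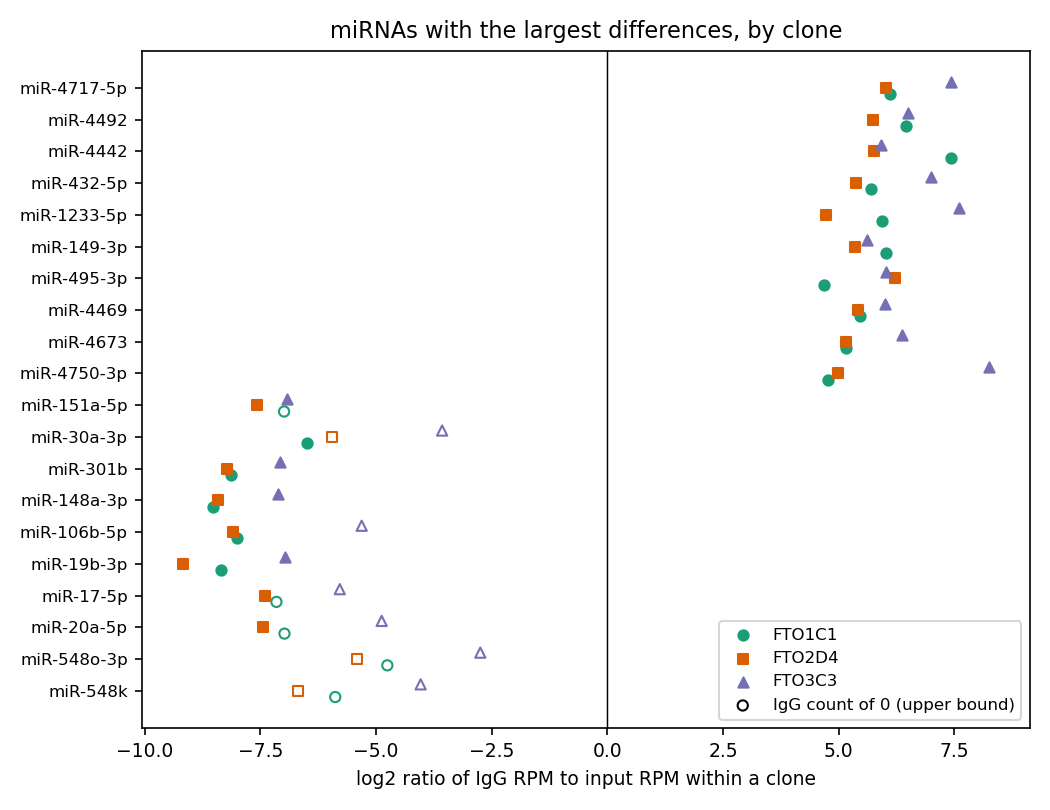
Log2 ratio of the IgG level to the input level (RPM) within each clone (x axis; symbols mark the clone) for the 10 miRNAs with the largest rises and the 10 with the largest falls among those above 100 RPM in the higher group. An open symbol marks an IgG count of 0 set to 3 reads and is an upper bound, so that the falls in FTO3C3, the shallowest IgG library, are often bounds; the rule that chose these miRNAs required the same direction in all 3 clones.

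Some entries were abundant in both the IgG precipitate and the input. After miR-6080 and miR-3168 came miR-3150a-5p, with 7204, 10015 and 1995 reads in IgG and 21316, 13676 and 14870 in input. Its log2 fold change was −0.03 ± 0.36 (SE), with overlapping groups, and 1.11 with totals that left out miR-6080. It was scarce in the scrambled siRNA libraries, with at most 118 reads in a library. miR-212-3p was alike, with 2649, 1827 and 850 reads in IgG, 5741, 2676 and 9159 in input and at most 98 in a scrambled siRNA library (log2 fold change −0.09, and 1.05 with totals that left out miR-6080). So was miR-4285 (−0.58, edgeR quasi-likelihood adjusted p = 0.186), with 1402, 1660 and 389 reads in IgG, 6394, 2521 and 5307 in input and at most 50 in a scrambled siRNA library, and it was called lower under TMM and DESeq2.

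miR-3972, miR-6766-3p and miR-589-3p were higher in IgG by a smaller factor. miR-3972 had 5602, 6876 and 1438 reads in IgG against 7951, 6530 and 3416 in input (log2 fold change 1.05 ± 0.37, SE), and no longer passed the test when any 1 of the clones was left out, or under TMM or DESeq2. miR-6766-3p had 2569, 3255 and 491 against 2092, 2559 and 1605 reads (1.25 ± 0.38) and was not called under TMM, under DESeq2 or without FTO1C1. miR-589-3p had 1707, 2084 and 421 against 1454, 1619 and 1092 (1.35 ± 0.39) and was not called under DESeq2.

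The abundant entries of the IgG precipitate included 2 that differed from this pattern. miR-718 was at 2100, 2559 and 3052 RPM in IgG but 44.7, 87.0 and 45.3 RPM in input, with within-clone ratios of 47.0, 29.4 and 67.3 (log2 fold change 5.49 ± 0.47, SE). miR-3943 had 1906, 2154 and 678 reads in IgG, 4653, 6187 and 5385 in input, and 57571, 51043 and 36100 in the scrambled siRNA libraries. Its share in IgG was thus close to that in input, with overlapping groups (log2 fold change −0.33 ± 0.37, and 0.81 with totals that left out miR-6080), while it was lower under TMM and DESeq2. In the m6A precipitates miR-3943 was higher than in IgG (log2 fold change 2.62, adjusted p = 0.00035, edgeR quasi-likelihood test).

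miRBase entries that overlap or resemble rRNA, tRNA, snoRNA or other abundant RNAs, which can be sequenced as fragments, went both ways. Of 43 listed entries 41 were tested, 23 were higher in IgG (56.1%, against 36.8% of all tested), 10 were lower (24.4%, against 21.8%) and 8 did not pass (median 1.56); 18 were higher and 6 lower on all 4 scales. Those that rose included miR-3960, with 771, 1204 and 343 reads in IgG and 49, 76 and 95 in input, and within-clone ratios of 29.9, 29.4 and 29.1 (log2 fold change 4.88 ± 0.46, SE). miR-3195 had 1117, 1265 and 422 reads against 72, 163 and 114 (4.54), and miR-663a, which resembles a part of the rRNA repeat, 698, 904 and 280 against 83, 65 and 57 (4.65).

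Those that fell included miR-4454, which ends in the CCA of a mature tRNA and had 31, 22 and 5 reads in IgG and 2649, 2870 and 2531 in input (−5.84). miR-1246, which matches the U2 small nuclear RNA, had 21, 35 and 13 reads against 765, 700 and 550 (−3.40). Both fell on all 4 scales, and in the m6A libraries miR-1246 had 1119, 7533 and 13024 reads.

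Entries with higher miRBase numbers, which were added later and are mostly less abundant, were compared with earlier ones against the 36.8% higher and 21.8% lower of all tested. Among entries up to miR-999, let-7 included, 170 of 662 tested (25.7%) were higher and 240 lower (median log2 fold change −0.34, and 0.81 with totals that left out miR-6080). From miR-1000 to miR-3999, 146 of 395 (37.0%, near the share of all tested) were higher and 69 lower (0.51, but −0.020 under TMM and −0.087 under DESeq2). From miR-4000 to miR-5999 193 (41.6%) were higher and 66 lower of 464 (0.80), and from miR-6000 upwards 205 (48.8%) and 48 of 420 (1.13). Of those tested in these 4 classes, 41.1%, 52.4%, 55.0% and 64.5% were under 15 RPM in at least 1 input library, where a rise is partly built in, and the part of this in the order of the classes was not tested.

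Ranges of entries numbered together were followed likewise, beside the 36.8% higher and 21.8% lower of all tested. In the range miR-6068 to miR-6090, which holds miR-6080, 12 of 21 tested (57.1%) were higher and 3 lower (median 1.51). miR-6089 had 276, 311 and 84 reads in IgG and 7, 26 and 23 in input (5.09), whereas miR-6086 fell, from 948, 1791 and 834 RPM in input to 144, 122 and 247 in IgG (−2.80). In the range miR-6715 to miR-6895, which holds many mirtrons, 70 of 140 5p arms (50%) were higher and 12 lower (1.23), and 56 of 119 3p arms (47.1%) were higher and 18 lower (0.89). Among these, miR-6735-3p fell most, with 10, 10 and 6 reads in IgG and 3534, 3990 and 2618 in input (−7.13). In the ranges miR-4417 to miR-4540 and miR-4632 to miR-4804, 49 of 109 (45.0%) and 90 of 211 (42.7%) were higher and 20 and 22 lower (medians 0.83 and 0.87). miR-4443 was a clear exception, with 18, 36 and 11 reads in IgG and 5807, 8881 and 6513 in input (−6.92). Of those tested in these ranges, in the order given, 61.9%, 67.9%, 56.3%, 53.2% and 57.8% were under 15 RPM in at least 1 input library. The same held for 1005 of all 1941 tested. A rise is partly built in there, and its part in the shares called higher was not tested.

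The imprinted DLK1-DIO3 miRNAs, 70 of which were tested, had 27 higher (38.6%) and 15 lower (21.4%) members, near the shares of all tested, and a median of 0.35, close to that of all miRNAs and −0.13 under TMM and −0.24 under DESeq2. Next to the rise of miR-495-3p, miR-370-3p of this region fell, with 73, 90 and 21 reads in IgG and 1439, 1521 and 1623 in input (−3.27). Entries numbered miR-512 to miR-527, with miR-498, miR-1283 and miR-1323, are largely from the primate cluster on chromosome 19 (12 of 17 tested, with 2 on chromosome X and 3 without a RefSeq sequence). Of these 17, 9 were higher (52.9%) and 1 lower (median 1.09), and 14 were under 15 RPM in at least 1 input library. In the miR-1273 family, 2 of 7 were higher (28.6%), and the median, −0.38, turned positive on several other settings, 0.77 with totals that left out miR-6080 among them.

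**Figure D4:**
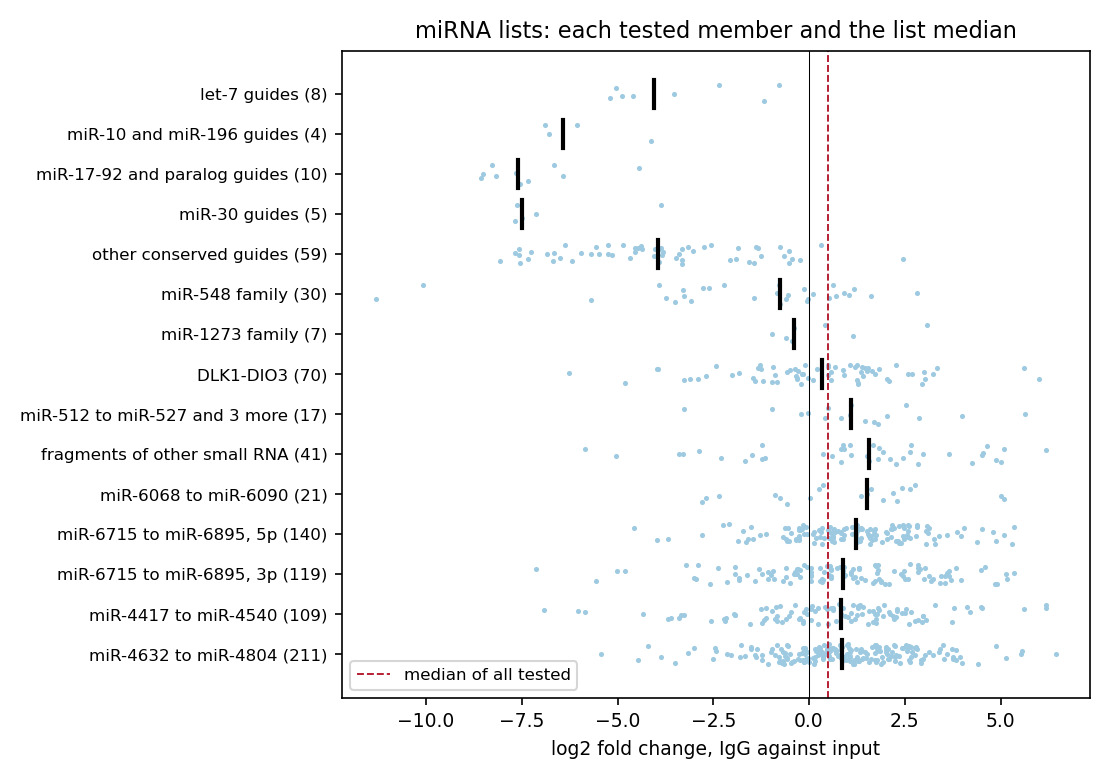
Log2 fold change of IgG against input (x axis) for each tested member (points) of 15 lists, with the list's median (black bar), the median of all tested miRNAs (dashed line, 0.49) and the number tested in brackets. The 5 lists of conserved guides have medians from −7.61 to −3.94 and the numbered ranges medians above 0.49; the points below −10 are the 2 miR-548 members without IgG reads, whose fitted values are not bounds, and the medians of miR-548 and miR-1273 (with totals without miR-6080) and DLK1-DIO3 (under TMM and DESeq2) change sign on other scales.

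The miRNAs gained and lost differed in base composition, which the choice of members did not use. Over the 1712 tested miRNAs with a sequence, the log2 fold change correlated with the GC content at r = 0.37 (Spearman's rho 0.37). The correlation was 0.37 in the 814 miRNAs with at least 15 RPM in all 3 inputs and 0.35 in the 898 below, so it held at both levels of abundance. It was 0.38, 0.36 and 0.32 with the within-clone ratios of FTO1C1, FTO2D4 and FTO3C3. These are correlations across miRNAs of the same libraries, which are not independent replicates. By base, r was 0.23 for G, 0.15 for C, −0.20 for A and −0.27 for U, and it was −0.04 for length.

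The mean GC content was 58.8% in miRNAs called higher, 51.1% in those not called and 46.9% in those called lower, against 52.9% in all miRNAs with a sequence. The 131 miRNAs with more than 50% G had a median log2 fold change of 1.98, with 89 called higher and 10 lower, against 0.24 in the 116 with at most 10% G. In the opposite direction, the median fell from 1.41 in the 167 miRNAs with at most 10% U to −0.66 in the 145 with 40 to 50% U. Among miRNAs with at least 15 RPM in all 3 inputs, the median was −0.07 in the 39 with more than 50% G and −2.60 in the 80 with 40 to 50% U. A run of 3 G (GGG) was found in 42.3% of the miRNAs called higher, 23.8% of those called lower and 34.2% of all with a sequence, and a run of 3 U (UUU) in 14.6%, 30.4% and 20.5%. Among miRNAs with at least 15 RPM in all 3 inputs the contrast for GGG was smaller, with a median log2 fold change of −0.59 in the 217 with it and −0.75 in the 597 without. The motif GGAC, a core of the m6A consensus in mRNA, was in 12.0% of the miRNAs called higher and 6.30% of those called lower, against 10.2% of all. Among miRNAs with at least 15 RPM in all 3 inputs, the median was −0.39 in the 73 with GGAC and −0.74 in the 741 without. GGAC is itself rich in G and C, and whether it differed beyond the base content was not tested. The broader core AAC or GAC differed less, at 39.6% of those called higher and 34.2% of those called lower. It was in 42.0% of those not called and 39.1% of all. Motifs were searched on the miRNA strand only.

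The reads showed the same difference as the calls. With miR-6080 and miR-3168 left out, the read-weighted GC content was 60.2%, 60.8% and 60.1% in the IgG libraries and 48.9%, 47.6% and 48.6% in the input libraries. In the m6A libraries it was 52.6%, 51.7% and 51.0%, between the other groups. The pair left out differs in composition itself, since miR-6080 is 36.8% G and 31.6% C, and miR-3168 is 23.5% of each.

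**Figure D5:**
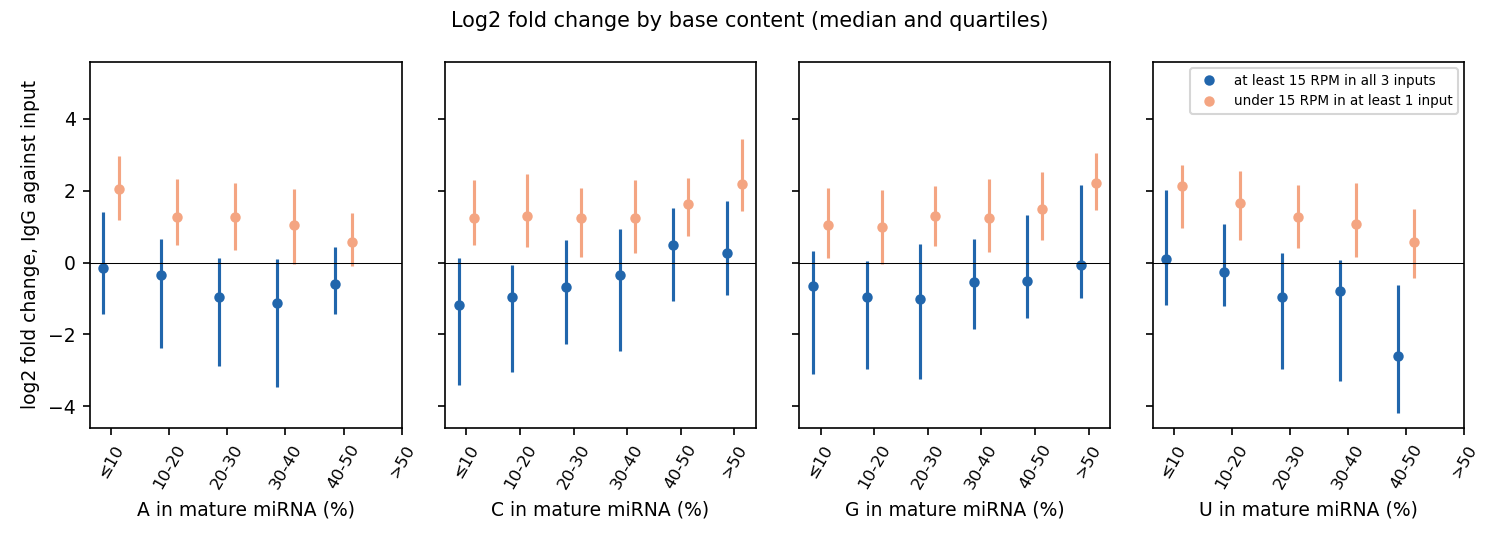
Median log2 fold change of IgG against input (points; y axis) with quartiles (bars) of the tested miRNAs with a sequence, by the percentage of A, C, G or U in the mature miRNA (x axes, classes with at least 20 miRNAs), separately for miRNAs with at least 15 RPM in all 3 input libraries (blue) and the others (orange). The medians of the less abundant miRNAs lie above those of the abundant ones in every class shown, and in both sets the medians are lower at high than at low U content.

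The IgG precipitate is the control of the m6A precipitate, and the following values share the IgG libraries with those above, so that the 2 comparisons are not independent and are given side by side only. In m6A against IgG on the scale of total miRNA reads, 2054 miRNAs were tested, 792 were higher in m6A (38.6%) and 26 lower (1.27%). The median was 0.83. This balance, too, depends on the scale. The TMM factors of FTO1C1, FTO2D4 and FTO3C3 were 0.71, 0.67 and 0.97 for IgG and 1.19, 1.30 and 1.40 for m6A. Under TMM the log2 fold changes of m6A against IgG are therefore lower. Of the conserved guides, 81 were tested, 65 were higher in m6A (median 3.34). miR-10a-5p had a log2 fold change of 6.13 (m6A against IgG), after −6.79 for IgG against input. For miR-103a-3p these values were 8.47 and −7.33, for miR-378a-3p 7.59 and −6.68, and for let-7f-5p 5.58 and −5.20. The m6A value was small for other depleted guides: 0.22 for miR-196b-5p (edgeR quasi-likelihood adjusted p = 0.672), after −6.07 for IgG against input, and 1.32 for miR-21-5p, after −5.25.

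The 10 miRNAs with the largest rises in IgG had m6A against IgG log2 fold changes between −1.24 and −0.40, and 5 of them (miR-4717-5p, miR-4442, miR-432-5p, miR-495-3p and miR-4673) were called lower in m6A. The choice by high IgG values favours lower values in m6A, so nothing is read from this count. None of the 5 passed the test without FTO2D4 or without FTO3C3. The other miRNAs of the 10 (miR-1233-5p, miR-149-3p, miR-4469, miR-4492 and miR-4750-3p) were also called lower in m6A under TMM and with totals that left out miR-6080. The fragments of other RNAs lay near the median of all miRNAs, with 16 of 43 higher and 1 lower in m6A (median 0.53). The miRNAs that were higher in IgG than in input, miR-6080 left out, held 9.14%, 9.17% and 11.8% of the IgG reads, 2.06%, 2.16% and 1.49% of the input reads and 9.75%, 9.18% and 10.1% of the m6A reads. These miRNAs were chosen by their high IgG values. The shares also depend on miR-6080, which took up more of the IgG reads than of the m6A reads in each clone. Nothing is therefore read from the likeness of the m6A and IgG shares, and no test of them was made.

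The labelled cell type was checked with miRNAs known to be abundant in HEK293 cells (miR-10a-5p, miR-10b-5p, miR-20a-5p, miR-92a-3p, miR-196a-5p and miR-196b-5p). Their summed level was 149058 to 238297 RPM in the input and 372123 to 471267 in the scrambled siRNA libraries, but 1044 to 2456 RPM in the IgG precipitates, where miR-20a-5p was at 0 in FTO1C1 and FTO3C3. Of the listed markers of other cell types, 15 were counted, including some of muscle, blood, endothelium and pluripotent cells. Their summed level was 303 to 456 RPM in IgG, 713 to 1199 in input and 608 to 771 in the scrambled siRNA libraries. Most of the input level came from miR-223-3p, a marker of myeloid cells, which had 572, 1200 and 788 reads in input, 21, 18 and 5 in IgG, 406, 1102 and 9216 in m6A and at most 160 in a scrambled siRNA library. Whether other cells or RNA contributed these reads was not tested. Differences in bulk RNA cannot be told apart into fewer cells with a miRNA and less of it per cell.

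The clones gave similar ratios. Across the 1941 tested miRNAs, the within-clone log2 ratios of IgG to input correlated at r = 0.90 (FTO1C1 and FTO2D4), 0.88 (FTO1C1 and FTO3C3) and 0.87 (FTO2D4 and FTO3C3), although their medians differed (0.38, 0.19 and 1.01). The median SD of the log2 ratio over the clones was 0.77. Of all 1941 tested, 1413 had the same direction in all 3 clones. Of the 714 miRNAs called higher, 700 had ratios above 1 in all 3 clones, and 402 of those called lower had ratios below 1. The calls rest on these same clones, so that a shared direction among them is largely built in. Where an IgG count was 0, the ratio was set to its bound, which for scarce miRNAs in FTO3C3 can turn a ratio.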

How the data were processed

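Small RNA libraries (TruSeq small RNA) from 3 untreated clones were used, as IgG precipitates, m6A precipitates and inputs, with scrambled siRNA libraries of the same clones beside them. Per the Methods of the study, small RNA was incubated with antibody and Protein G beads, washed, and eluted with proteinase K. The authors trimmed adapters with cutadapt, matched reads to miRBase entries by exact matches and collapsed entries with identical sequence; the deposited values are raw counts for each mature miRNA. Reads were not aligned to the genome, so that fragments of other RNAs that match an entry are counted as that miRNA, and reads that match relatives can be split among them.

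From the counts, RPM of the total miRNA reads of a library were computed, as the study did. IgG and input were compared with edgeR's quasi-likelihood test (glmQLFit, glmQLFTest; a minimum count of 10 in filterByExpr; the total miRNA reads as library sizes; clone as replicate block), with Benjamini-Hochberg adjustment over all miRNAs tested at 0.05. m6A against IgG was fitted in the same way. Log2 fold changes are from this fit; within-clone ratios are ratios of RPM, with a count of 0 set to 3 reads. Shares and effective numbers were compared by exact two-sided permutation tests.

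The IgG and input libraries of a clone are paired by their cell line. Their deviations from the group means had correlations of 0.144, −0.0519 and 0.0900 in FTO1C1, FTO2D4 and FTO3C3 (585 miRNAs with 10 reads in all 6 libraries). Within a group, any pair of libraries differed by more than sampling noise (chi-square per degree of freedom 6.11 to 145); all were kept as separate samples. Tested on simulated counts of IgG against input (1941 miRNAs, 200 changed, 3 runs), the fit recovered 44.2% of 3-fold changes with 2.48% false calls and 77.2% of 4-fold changes with 3.13%. The simulation held no difference between clones and far fewer changes than the data, where 58.6% of the miRNAs were called. Its rates therefore do not cover errors from the scaling.

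The members, the miRNA lists, the markers and the tests were chosen with earlier results of these data known. The miRNAs named are the 10 with the largest rise and the 10 with the largest fall among those with an adjusted p under 0.05, the same direction in all 3 clones and at least 100 RPM in all libraries of the higher group, the 10 with the highest mean RPM in input and in IgG, up to 4 members of each list with the highest mean RPM, and the markers. Others were named after their values were seen: the further guides (let-7c-5p, let-7d-5p, let-7e-5p, miR-21-5p, miR-100-5p, miR-103a-3p, miR-125b-5p, miR-363-3p, miR-378a-3p) and miR-1246. Alternatives were TMM factors, totals without miR-6080, DESeq2, no filter, a filter of 15 RPM, no replicate block, all 9 precipitate and input libraries in one fit, and each clone left out. Tests were run with edgeR 4.0.16, limma 3.58.1 and DESeq2 1.42.0 in R 4.3.3, and with scipy 1.17.1 (pandas 2.3.3, numpy 2.4.6) in Python 3.11.15, and plots were drawn with matplotlib 3.10.9.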

Additional observations from a re-analysis of the deposited data

How the results depend on the processing

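The balance of calls changed with the scale, as given above. Totals without miR-6080 gave 1192 miRNAs higher, 276 lower and a median log2 fold change of all tested of 1.63. DESeq2 gave 447 higher and a median of −0.093, and TMM a median of −0.021. These settings divide by other totals or factors, and DESeq2 also uses another test. The parts of the scale and of the test in the DESeq2 counts cannot be told apart. The other settings moved no count over all miRNAs by more than 1.5 times: leaving out each clone gave 509 to 724 higher, 331 to 446 lower and medians of 0.28 (without FTO3C3) to 0.72 (without FTO2D4). Without the replicate block, that is, without the pairing by clone, 746 were higher and 440 lower, and no call of the 98 named miRNAs tested changed.

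List medians that changed sign were those of the miR-548 family (0.42 with totals without miR-6080), of miR-1273 (0.77 with totals without miR-6080, 0.038 without the filter, 0.064 with 9 libraries in one fit, and −0.73 to 0.65 with a clone left out), of DLK1-DIO3 (−0.13 under TMM, −0.24 under DESeq2, −0.018 (without FTO3C3) to 0.49 with a clone left out), of entries up to miR-999 (0.81 with totals without miR-6080) and of miR-1000 to miR-3999 (−0.020 under TMM and −0.087 under DESeq2).

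With totals without miR-6080, miRNAs near 0 that had not been called became positive and were called higher (edgeR quasi-likelihood adjusted p from 0.0030 to 0.035): miR-212-3p 1.05, miR-3150a-5p 1.11, miR-3168 0.99, miR-376c-3p 1.02, miR-3943 0.81, miR-486-5p 1.12 and miR-548v 1.08. The effective number of miRNAs reversed, to a mean difference of 2.13, when miR-6080 was left out of the reads. Depth limits the falls: in the IgG library of FTO3C3, levels under 16.1 RPM cannot be told from 0.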

Other observations

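Some miRNAs with at least 10 reads in all 6 libraries were more than 2-fold higher in IgG in 1 clone and more than 2-fold lower in another. There were 7 of them among 585 (1.20%). miR-148a-5p, the passenger strand of miR-148a, had log2 ratios of −1.43, −2.48 and 1.32 in FTO1C1, FTO2D4 and FTO3C3. For miR-601 they were −0.55, −1.33 and 1.75, for miR-6877-3p −1.28, −1.28 and 1.83, and for miR-4660 −1.15, 1.08 and 1.40. These were chosen after their values were seen. The difference between the clones was not tested, since each clone has 1 library per group.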
